A study of Mus musculus with 12 samples.

Results

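Outer root sheath (ORS) cells of mouse skin that carried a deletion of Egfr were compared with ORS cells that kept the gene, across all autosomal genes. The members are the 4 ORS libraries of a series of 12: knockout libraries E358 and E359, with the genotype EGFR_delta_ep, and control libraries E341 and E344, with the genotype EGFR_fl_fl. Of the 25965 genes listed, 24483 are autosomal, and 13982 of these passed the filter on low reads and were tested. The cells had been sorted, and the RNA was isolated by PicoPure and amplified by SMARTer Ultra, kits made for small amounts of RNA. EGFR_fl_fl denotes an Egfr gene flanked by recombination sites and not deleted, and EGFR_delta_ep a deletion in the epidermis as the genotype name has it. The Cre driver, the sort gate, the age and strain of the mice, the hair cycle stage, and whether a library came from 1 animal or a pool were not stated in the labels. The series is about EGFR and the differentiation of the hair shaft, and the comparison asks which transcripts differ in the sheath when the receptor gene is lost. A further 4 libraries of the series, labelled IFE (controls E341 and E360, knockouts E358 and E359, same genotypes), served for the estimate of the spread and for 1 contrast. Their label text pairs IFE with the inner root sheath, so only the abbreviation is used here.

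The epidermal growth factor receptor is a receptor tyrosine kinase of the cell surface. Its ligands, such as TGF-alpha, amphiregulin, HB-EGF and epiregulin, are shed from keratinocytes and bind it, the receptor pairs with itself or with ERBB2 or ERBB3, and the RAS and ERK pathway then drives transcription of immediate-early genes such as Fos and Egr1, along with feedback inhibitors such as the Sprouty proteins and dual-specificity phosphatases. The outer root sheath is the outermost epithelial layer of the hair follicle and is continuous with the basal layer of the epidermis. It holds keratinocytes with Krt5, Krt14 and Krt17, and its upper part opens into the infundibulum and the duct of the sebaceous gland. Loss of EGFR signalling in skin is known for disturbed hair growth and for inflammation.

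In a comparison of this size the fit separated no gene from the spread between libraries. With limma over 14449 genes, 0 autosomal genes of 13982 passed an adjusted p under 0.05 (0%), and the adjusted p was 1 for every gene named below. At an unadjusted p under 0.05 the knockouts were higher for 191 genes (1.37%) and lower for 283 genes (2.02%), together 3.39%, less than the 5% that would be met if no gene differed. Limma-voom also called 0 genes. The knockouts lay above both controls for 2119 genes (15.2%) and below both for 2284 genes (16.3%). All values that follow describe these 4 libraries, and the unadjusted p is given to rank genes, not to call them. The labels do not tie the libraries of a group to separate animals, so a p-value here sets the difference against the spread between samples. The controls differ in sex, as given below, so their spread is not only technical, whereas that of the knockouts may be. Levels are CPM, reads per 1e6 reads in genes after scaling by TMM, and log2 fold changes are knockout over control on the log2(CPM + 0.5) scale, which understates changes of low genes.

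Reads in genes numbered 24.7 to 27.7 M per ORS library, and 0 reads allow a level of up to 3 reads, or 0.105 to 0.116 CPM, a limit that covers counting error only. The 2 controls differed by a median of 0.37 (log2) per gene and the 2 knockouts by 0.54. Counts of replicates differed far beyond counting noise (chi-square per degree of freedom 69.9 for controls and 140.2 for knockouts). Knockout E358 stood apart the most: 74 genes were at least 4-fold above and 114 at least 4-fold below each of the other 3 libraries, against 34 to 49 above and 19 to 35 below for each other library. It also had reads for the fewest autosomal genes, 13227 against 14098 to 14303. Control E341 had 29 reads of Xist, the X-inactivation RNA, against 38267 to 43878 in the other 3, so the controls differ in sex from each other and only autosomal genes are given. E341 is the only ORS library with few Xist reads, so sex is not balanced between the genotypes. Leaving out the sex chromosomes does not remove that imbalance, and the part of sex in the autosomal results was not tested. Of the sheath and basal keratinocyte genes, Krt5 was at 2609 to 3753 CPM, Krt15 at 4164 to 5173 CPM and Sox9 at 1648 to 2976 CPM. That list mixes sheath genes with basal keratinocyte genes, so these levels do not by themselves set the sheath apart. Krt75, a keratin of the companion layer, reached only 3.33 CPM, and Fgf5 had 0 reads in all 4 libraries. The summed level of the 27 sheath and basal keratinocyte genes was 20178 and 20767 CPM in the controls and 21075 and 21913 CPM in the knockouts.

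Marker lists of other cells differed in level and direction, and 0 of their members had an unadjusted p under 0.05. Of the 16 leukocyte and macrophage genes, 7 had 0 reads in all 4 libraries, among them Ptprc, Lyz2 and C1qa, and the list summed to 16 to 21.5 CPM. The 13 T cell and Langerhans cell genes listed summed to 83.9 to 118.4 CPM in the controls and 99.2 to 163.2 CPM in the knockouts, nearly all of it Epcam, while Cd3e and Cd207 had 0 reads. Melanocyte genes summed to 232.4 and 312.1 CPM in the controls and 195.9 and 252.0 CPM in the knockouts, mostly Slc24a5 and Mitf, with Tyr and Kit at 0 reads. Tyrp1 and Gpnmb stood out in knockout E359 alone, at 5.93 and 11.7 CPM. The 18 fibroblast and dermal papilla genes summed to 244.4 to 312.7 CPM over the 4 libraries, with Col3a1 at 0 reads. Endothelial and mural genes summed to 136.2 to 196.7 CPM, carried by Cspg4, with Cdh5, Kdr and Vwf at 0 reads. The 9 Merkel cell genes summed to 14.3 and 4.97 CPM in the controls and 23.4 and 16.6 CPM in the knockouts, and the 3 that passed the filter had log2 fold changes above 0, with Sox2, Atoh1 and Krt20 at 0 reads. The 10 nerve and Schwann cell genes summed to 2.80 and 3.89 CPM against 13.7 and 7.93 CPM, and again the 3 that passed lay above 0, with Tubb3 and Gap43 at 0 reads. The part of such cells in the results was not tested.

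Promoters of 3 genes that were lower in the knockouts at an unadjusted p under 0.05 are shown, Sprr1a, Krtdap and Klk7. They were searched for TGANTCA, with N any base, a loose form of the motif of the transcription factor AP-1. It reads the same on both strands. The first 2 were picked because they hold it, and Klk7 does not. They are the 250 bases before the annotated start in RefSeq (build GRCm38.p6), 5′ to 3′ on the gene's strand, with the motif in capitals.
Sprr1a promoter, chr3:92485882-92486131, minus strand: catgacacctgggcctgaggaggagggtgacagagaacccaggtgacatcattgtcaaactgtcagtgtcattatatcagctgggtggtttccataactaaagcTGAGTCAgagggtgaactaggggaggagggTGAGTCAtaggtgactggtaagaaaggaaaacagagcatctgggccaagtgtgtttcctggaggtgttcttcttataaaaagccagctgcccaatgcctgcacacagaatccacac
Krtdap promoter, chr7:30787655-30787904, plus strand: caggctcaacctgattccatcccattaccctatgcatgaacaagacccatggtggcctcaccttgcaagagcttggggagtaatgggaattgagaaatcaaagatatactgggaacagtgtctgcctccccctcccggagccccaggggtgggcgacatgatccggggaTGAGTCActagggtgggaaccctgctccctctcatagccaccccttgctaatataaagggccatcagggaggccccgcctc
Klk7 promoter, chr7:43811044-43811293, plus strand: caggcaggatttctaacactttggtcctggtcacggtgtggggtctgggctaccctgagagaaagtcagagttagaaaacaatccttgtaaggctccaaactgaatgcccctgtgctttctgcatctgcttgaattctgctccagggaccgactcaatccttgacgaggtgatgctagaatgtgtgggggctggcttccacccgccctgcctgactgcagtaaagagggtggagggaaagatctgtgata
The matches in Sprr1a begin 146 and 116 bases before the start, and the match in Krtdap begins 81 bases before it. In the same window the motif was present in 2217 of 32851 RefSeq promoters (6.75%). Among the 15 genes named as lower below, 9 had a promoter in the table and 1 of them, Sprr1a, held the motif. Of the 15 named as higher, 12 had a promoter and 0 held it. A match is a description of these letters and not a bound site.

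Egfr, the targeted gene (chromosome 11, 16752203 to 16918158, + strand, mm10, protein coding), was reduced in both knockouts but to unequal degrees. Its level was 272.5 CPM in control E341 and 247.7 CPM in control E344, against 3.71 CPM in E358 and 55.2 CPM in E359. The groups did not overlap, and the knockouts kept 1.43% and 21.2% of the control mean. The log2 fold change was -4.09 (SE 0.952, unadjusted p = 0.00146). It was -5.95 without knockout E359 and -2.22 without knockout E358. A transcript of the opposite strand inside Egfr, E230015J15Rik, went the other way, from 5.78 and 10.7 CPM in the controls to 60.5 and 60.4 CPM in the knockouts. The use of strand in the counting is not given, so reads of the pair cannot be told apart. In these bulk libraries, fewer cells that express a gene and less RNA per cell cannot be told apart either, for Egfr or for any gene below.

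Erbb2 overlapped between the groups, and Erbb3 was lower in 1 of the 2 knockouts. Erbb2, the shared partner with no ligand of its own, was at 56.1 and 50.3 CPM in the controls and 48.7 and 50.8 CPM in the knockouts, and the groups overlapped. Erbb3, a partner with a weak kinase, was at 146.8 and 141.6 CPM in the controls and 93.4 and 143.7 CPM in the knockouts. The low value of Erbb3 belonged to E358, and E359 lay between the controls. Erbb4 had 0 reads throughout. All 3 tested receptors lay on the lower side of 0, and Egfr was the only one with an unadjusted p under 0.05.

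Among the ligands, Hbegf was lower and Egf higher in both knockouts, both at low levels. Hbegf, which encodes HB-EGF, was at 13.1 and 7.02 CPM in the controls and at 1.56 and 0.38 CPM in the knockouts (log2 fold change -2.91, SE 1.47, unadjusted p = 0.0751). Egf was at 0.39 and 0 CPM in the controls and at 10.4 and 3.59 CPM in the knockouts (3.33, SE 1.49, unadjusted p = 0.0484). Neither gene overlapped between groups, beside 15.2% of all genes above both controls and 16.3% below both. Nrg4, a ligand of ERBB4, was at 14.2 and 11.2 CPM against 9.51 and 10.5 CPM. Btc, Nrg1 and Epgn reached at most 4.27 CPM and overlapped between groups. Areg, Ereg, Nrg2 and Nrg3 had 0 reads in every ORS library, and Tgfa was at most 0.31 CPM. Of 11 ligands, 6 passed the filter. At an unadjusted p under 0.05, 1 was higher and 0 were lower (16.7% and 0%, beside 1.37% and 2.02% of all genes). The 1 was Egf, so that share rests on a single gene of low level.

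Of 18 genes that inhibit EGFR, process its ligands or turn it over, 15 had a log2 fold change below 0 (52.0% of all autosomal genes tested did), with a median of -0.26 against -0.02 over all autosomal genes tested. Only 2 (11.1%) had an unadjusted p under 0.05, both lower, beside 2.02% of all genes lower at that p. Rhbdf1, an inactive rhomboid that helps the ligand-shedding protease ADAM17 mature, was at 29.9 and 38.0 CPM in the controls and 6.35 and 25.1 CPM in the knockouts (-1.37, SE 0.605). Znrf3, a membrane ubiquitin ligase, was at 255.0 and 313.8 CPM in the controls and 148.0 and 233.8 CPM in the knockouts (-0.60, SE 0.269). In both genes the low value belonged to E358, and E359 lay much nearer the controls. Without knockout E358 the median of the 18 genes was -0.04, and 0 were lower at that p, as without either control, against 3 without knockout E359. Errfi1, the feedback inhibitor MIG6, overlapped between groups at 16.2 and 21.3 CPM against 7.95 and 23.4 CPM. Lrig1, an inhibitor that marks stem cells of the upper follicle, was at 384.9 and 434.2 CPM against 327.0 and 383.5 CPM. Adam17 itself was at 100.7 and 113.2 CPM against 101.9 and 95.2 CPM.

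The immediate-early transcription factors Egr1, Fos and Fosb were lower in both knockouts, whereas the ERK feedback genes showed no shared direction. Egr1, a zinc finger factor induced by growth factors (chromosome 18, mm10), was at 150.5 and 237.1 CPM in the controls and 32.2 and 19.9 CPM in the knockouts. Its log2 fold change was -2.87 (SE 0.708, unadjusted p = 0.00213), and the lowest control was over 4-fold above the highest knockout. Fos was at 111.8 and 49.7 CPM in the controls and 16.4 and 21.7 CPM in the knockouts (-1.96, SE 0.554). Fosb was at 17.9 and 13.7 CPM against 3.60 and 1.81 CPM (-2.39, SE 0.909). The groups did not overlap for any of the 3. Those were 3 of 32 tested immediate-early genes, with 0 higher (9.4% and 0%, beside 2.02% and 1.37% of all genes). The median of the list was -0.19. Zfp36, which encodes a protein that destabilises messenger RNA, was at 16.4 and 18.5 CPM against 2.71 and 10.4 CPM (unadjusted p = 0.0521). Jun, the usual partner of FOS, overlapped at 100.9 and 66.5 CPM against 86.2 and 57.3 CPM. Socs3 had values on the other side, 8.09 and 7.44 CPM in the controls and 37.3 and 14.2 CPM in the knockouts. The count of lower members was 1 of 31 without control E341, 2 without control E344, 3 without knockout E358 and 4 without knockout E359.

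Of the 24 ERK feedback and ETS target genes tested, 12 lay above and 12 below 0, the median was -0.01, and 0 had an unadjusted p under 0.05 in either direction. Spry2, a Sprouty inhibitor, was at 134.5 and 123.1 CPM in the controls and 132.8 and 114.7 CPM in the knockouts. Dusp6, the ERK phosphatase, was at 36.1 and 73.9 CPM against 25.1 and 30.5 CPM, so the controls differed from each other as much as from the knockouts. Spry4 was at 8.93 and 2.16 CPM against 0.78 and 0.94 CPM (unadjusted p = 0.0604). Dusp10 was at 6.72 and 4.86 CPM against 14.0 and 19.4 CPM (unadjusted p = 0.0576). Ccnd1, the D-type cyclin induced by ERK, was at 446.0 and 484.6 CPM against 410.8 and 333.0 CPM.

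The lowest unadjusted p among the lower genes belonged to Cst6, and 6 further members of the same list of barrier lipid enzymes and proteases were lower with it. Cst6 (chromosome 19, 5344705 to 5349574) encodes cystatin M/E, an inhibitor of cathepsins and legumain in the upper epidermis. It was at 75.4 and 109.0 CPM in the controls and at 2.08 and 3.47 CPM in the knockouts, or 3.01% of the control mean. Its log2 fold change was -4.83 (SE 0.937, unadjusted p = 0.00038). The kallikreins of the skin, serine proteases that degrade desmosomes during shedding and that lie side by side on chromosome 7, were lower in the same libraries. Klk7 was at 11.7 and 18.4 CPM in the controls, with 3 reads (0.11 CPM) in knockout E358 and 0 in E359. Klk10 was at 18.1 and 17.7 CPM against 10.6 and 8.12 CPM. Klk5 was at 4.13 and 2.66 CPM in the controls, with 0 reads in both knockouts, at least 30.2-fold lower against a floor of 3 reads a library. The 2 remaining kallikreins with an unadjusted p under 0.05 were lower still in level: Klk6, at 2.31 and 1.16 CPM in the controls and 0 reads in knockouts, and Klk11, at 3.47 and 1.39 CPM against 0.52 and 0 CPM. Klk8 and Klk9 overlapped between groups. Elovl1, an elongase of very long fatty acids, was at 89.5 and 110.0 CPM against 42.1 and 54.5 CPM (-1.04, SE 0.305), and it overlaps Cdc20 on the other strand, at 70.5 and 74.1 CPM against 151 and 65.7 CPM.

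Counted together, 7 of 36 tested members of that list were lower and 0 higher at an unadjusted p under 0.05, or 19.4% and 0% beside 2.02% and 1.37% of all genes. The median log2 fold change was -0.23. It was -0.05 without control E341 and -0.44 to -0.24 without any 1 other ORS library. Elovl1 was the only lipid enzyme among the 7. Abca12, the lipid transporter of lamellar granules, was at 19.5 and 7.29 CPM against 7.02 and 2.15 CPM, and Degs1, a ceramide desaturase, at 295.4 and 216.6 CPM against 185.1 and 223.0 CPM. Without control E341 or without control E344 the list had 4 lower members, without knockout E358 it had 7 and without knockout E359 it had 5.

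**Figure D1:**
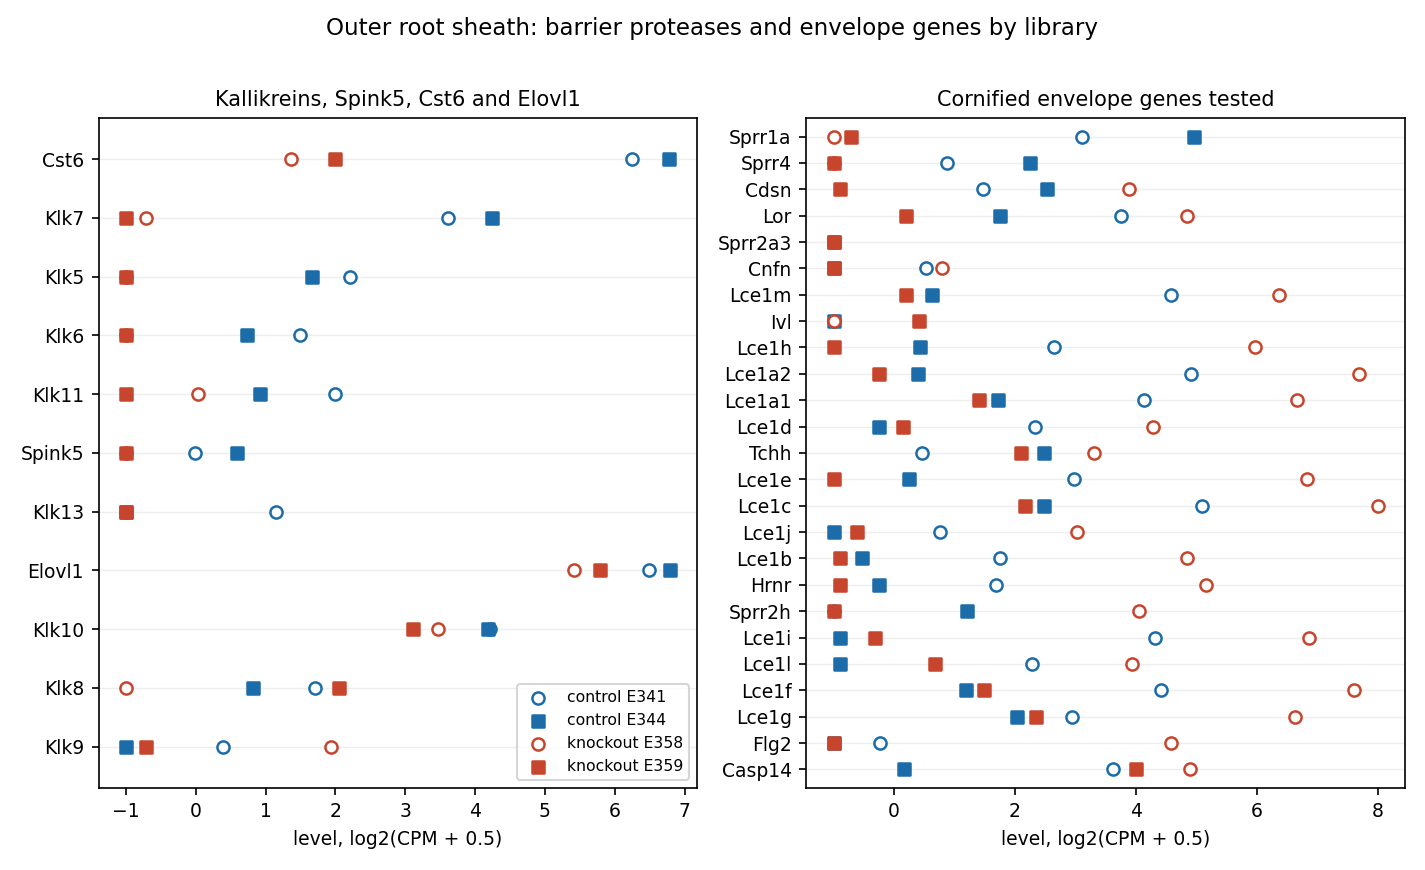
Level of each gene in the 4 ORS libraries, as log2(CPM + 0.5), where -1 is 0 reads; left, kallikreins, Spink5, Cst6 and Elovl1, and right, the 25 cornified envelope genes tested (blue, controls; red, knockouts; each point 1 library). Cst6 and Klk7 lie far to the right in both controls, whereas most Lce1 genes lie far to the right in knockout E358 and less so in control E341.

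Genes of the suprabasal layers gave 3 lower members of 26 tested and 0 higher (11.5% and 0%, beside 2.02% and 1.37% of all genes). Zfp750, a transcription factor that promotes the late steps of epidermal differentiation, was at 13.6 and 12 CPM in the controls and 1.52 and 0.83 CPM in the knockouts. Its log2 fold change was -3.01 (SE 0.614, unadjusted p = 0.000553). The gene lies within Tbcd on the other strand, which was at 37.2 and 48.1 CPM in the controls and 50.5 and 47.6 CPM in the knockouts. Krtdap, a secreted protein of differentiating keratinocytes, was at 233.0 and 213.3 CPM against 164.7 and 93.4 CPM (-0.84, SE 0.236). Krt1 was at 37.4 and 4.70 CPM against 4.23 and 1.74 CPM, so its 2 controls lay further apart than control E344 and the knockouts. Sbsn, which encodes suprabasin, was at 97.5 and 93.9 CPM against 57.7 and 44.8 CPM (unadjusted p = 0.0507). Ovol1, a repressor that drives exit from proliferation, was at 9.25 and 9.18 CPM against 0.33 and 4.83 CPM. The median of the list was -0.21. It was -0.04 without control E341 and -0.388 to -0.255 without any 1 other ORS library. The lower members numbered 5, with 2 higher, without knockout E359 and 2 or 3 without any other library.

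Some of these transcripts are much more abundant in the IFE libraries. Krtdap was at 4464 to 5143 CPM there, Klk10 at 171.6 to 248.1 CPM and Klk11 at 111.4 to 157.2 CPM. Krt10, the partner of Krt1 and a defining marker of suprabasal epidermis, was at 64.5 and 27.6 CPM in ORS controls and 41.2 and 37.1 CPM in ORS knockouts, and overlapped. The whole suprabasal list summed to 2152 and 1974 CPM in the controls and 2024 and 1956 CPM in the knockouts. Cst6, by contrast, was at 3.43 to 36.1 CPM in IFE, below the ORS controls. The part of such cells in these differences was not tested.

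The cornified envelope genes, which encode the protein shell of the dead surface cells, followed single libraries more than genotype. The 40 autosomal members listed summed to 218.5 CPM in control E341, 68.3 CPM in control E344, 1456 CPM in E358 and 37.3 CPM in E359. Knockout E358 held the highest value of 21 of the 25 tested members, and knockout E359 had the lowest sum. Lce1c, a late envelope protein, was at 33.6 and 5.09 CPM in the controls and 254.6 and 4 CPM in the knockouts. Flg2, a filaggrin-like protein, was at 0.35 and 0 CPM in the controls and 23.4 and 0 CPM in the knockouts. The median log2 fold change of the list was 1.23, was -1.51 without knockout E358, 3.75 without knockout E359, 2.41 without control E341 and 0 without control E344. The Lce1 genes are near-identical to each other, so their separate values are uncertain.

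Sprr1a and Sprr4 departed from that pattern, and neither they nor Casp14 overlapped between groups. Sprr1a, a small proline-rich crosslinked protein induced by stress, whose promoter is printed above, was at 8.12 and 30.6 CPM in the controls, with 0 reads in knockout E358 and 3 reads (0.11 CPM) in E359. Its log2 fold change was -4.89 (SE 1.16, unadjusted p = 0.00166). Sprr4 was at 1.33 and 4.24 CPM in the controls, with 0 reads in both knockouts. Casp14, the protease that processes filaggrin, went the other way, at 11.8 and 0.62 CPM in the controls and 29.2 and 15.6 CPM in the knockouts (2.56, SE 0.978). Its low value belonged to control E344 alone, control E341 lay near knockout E359, and knockout E358 was highest. Krt6a, a stress and companion layer keratin of the sheath, was at 11.3 and 32.5 CPM in the controls and 0.93 and 0.79 CPM in the knockouts (-3.86, SE 0.947). Its near-identical neighbour Krt6b stayed at or under 0.28 CPM in all 4 libraries, and reads of the pair may be shared. Sprr1a and Krt6a were both higher in control E344 than in control E341, unlike the Lce1 genes.

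The basal and sheath genes had a median of 0.05 over 26 tested, 1 higher and 2 lower at an unadjusted p under 0.05. Those shares were 3.85% and 7.69%, beside 1.37% and 2.02% of all genes. Krt15, a keratin of quiescent basal and bulge cells, was at 4164 and 4208 CPM in the controls and 5173 and 4989 CPM in the knockouts (0.28, SE 0.123). Fst, which encodes the activin inhibitor follistatin, was at 202.2 and 213.1 CPM against 172.9 and 100.4 CPM (-0.65, SE 0.281). Without knockout E358 the higher members numbered 4. Krt79, a keratin of the infundibulum and sebaceous duct, was at 206.6 and 229.8 CPM in the controls and 104.7 and 110.7 CPM in the knockouts (-1.01, unadjusted p = 0.0615). The groups did not overlap for Krt79, which missed the threshold. Krt17 was at 4116 and 4479 CPM against 3812 and 3794 CPM.

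Of the sebaceous genes tested, 20 of 27 lay below 0, beside 52.0% of all autosomal genes tested. Elovl3, an elongase made in sebaceous gland and hair follicle (chromosome 19, 46131897 to 46135694), was at 20.0 and 5.24 CPM in the controls, with 0 reads in knockout E358 and 3 reads (0.11 CPM) in E359 (-4.29, SE 0.893, unadjusted p = 0.000646). Mgst1, a glutathione transferase of sebocytes, was at 156.0 and 86.5 CPM against 63.7 and 42.0 CPM (-1.16, SE 0.408). These were the 2 lower members of 27 tested, with 0 higher (7.41% and 0%, beside 2.02% and 1.37% of all genes) and a median of -0.35. Scd1, which marks sebocytes, overlapped at 63.2 and 12.2 CPM against 23.7 and 23.1 CPM, and Cidea was at 11.5 and 1.66 CPM against 0 and 3.25 CPM. Control E341 held the highest value of 14 of the 27 members. Without knockout E358 the median was 0.0034, with 3 lower members, and without control E341 there were 0 lower.

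Of 23 cholesterol synthesis genes tested, 17 lay below 0, 11 of them with both knockouts below both controls, and 2 lay above both controls. The median was -0.48, beside -0.02 over all genes, of which 16.3% lay below both controls and 15.2% above both. At an unadjusted p under 0.05, 2 of the 23 were lower and 0 higher (8.70% and 0%, beside 2.02% and 1.37% of all genes). Sc4mol, the sterol oxidase now named Msmo1, was at 277.1 and 232.1 CPM in the controls and 96.7 and 161.6 CPM in the knockouts (-1.02, SE 0.293, unadjusted p = 0.00571). Dhcr7, the last reductase of the pathway, was at 79.8 and 99.2 CPM against 41.8 and 45.2 CPM (-1.03, SE 0.411). Hmgcs1, an early step, was at 395.2 and 352.9 CPM against 214.3 and 334.9 CPM. Knockout E358 was the lower of the knockouts for each of these 3 genes, and without it the median of the list was -0.03, with 1 lower member. Without control E341 there were 0.

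In the WNT pathway, 3 of 36 tested genes were higher and 1, Znrf3, lower at an unadjusted p under 0.05, with a median of 0.05. Those shares were 8.33% and 2.78%, beside 1.37% and 2.02% of all genes. Wnt3, a canonical ligand (chromosome 11, 103774150 to 103817957, + strand), was at 1.40 and 1.31 CPM in the controls and 6.98 and 7.78 CPM in the knockouts. This was a 5.44-fold difference of the means with little spread inside either group (2.08, SE 0.396, unadjusted p = 0.000321). Wnt4 was at 25.9 and 25.3 CPM against 46.3 and 41.9 CPM (0.77, SE 0.270). Wif1, a secreted inhibitor that binds WNT ligands, was at 1.37 and 0 CPM in the controls and 35.2 and 7.36 CPM in the knockouts (4.12, SE 1.03). The groups did not overlap for any of them. The higher members numbered 5 without knockout E359 and 2 without any other library. In IFE, Wnt3 was at 272.9 to 316.8 CPM in all 4 libraries, far above the ORS level. The part of such cells in the ORS values was not tested. Jag1, a Notch ligand, was at 75.2 and 70.8 CPM against 102.5 and 142.5 CPM (0.72, SE 0.279), the 1 Notch gene of 21 tested with an unadjusted p under 0.05.

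Of the junction genes tested, 26 of 35 lay below 0, as did 18 of 23 protease inhibitors, beside 52.0% of all autosomal genes tested. Cldn1, the main claudin of the epidermal tight junction, was at 305.5 and 306.3 CPM against 220.0 and 199.2 CPM (-0.55, SE 0.187). Dsg2, a desmoglein of basal keratinocytes, was at 116.7 and 112.1 CPM against 83.0 and 68.6 CPM (-0.60, SE 0.268). In all, 3 of 35 junction genes were lower and 0 higher at an unadjusted p under 0.05 (8.57% and 0%, beside 2.02% and 1.37% of all genes). The median was -0.15, and -0.40 to -0.05 when 1 ORS library was left out. Among 23 serpins, cystatins and related inhibitors, 3 were lower, Cst6, Serpinb6b (3.96 and 7.44 CPM against 0.11 and 0 CPM) and the stefin A gene BC100530 (19 and 4.93 CPM against 5.61 and 0.11 CPM, overlapping). Serpinb1a was the 1 higher, at 1.30 and 2.51 CPM against 8.43 and 6.76 CPM. Serpins of clade B and stefins have close copies, so these values are uncertain. The lower members were 13.0% of that list and the higher 4.35%, beside 2.02% and 1.37% of all genes. Its median was -0.27, and it was 0 without control E341 and -0.88 without control E344. Without knockout E358 it was -0.77, and without knockout E359 -0.09.

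Interferon and antigen presentation genes gave 4 lower and 1 higher of 37 tested, all at low levels. Those shares were 10.8% and 2.70%, beside 2.02% and 1.37% of all genes. Usp18, an interferon-induced protease, was at 4.41 and 1.73 CPM in the controls, with 0 reads in both knockouts, at least 27.4-fold lower against a floor of 3 reads a library. Nlrc5, the activator of MHC class I genes, was at 3.29 and 8.83 CPM against 0.19 and 0.79 CPM. Gbp2 was at 3.54 and 3.39 CPM against 0 and 0.04 CPM, and Ciita, the activator of MHC class II genes, at 0.95 and 2.35 CPM against 0 and 0.15 CPM. Tap2, the peptide transporter, was at 0.42 and 1.58 CPM against 4.98 and 11.8 CPM. The lower members numbered 1 without either control, 3 without knockout E358 and 2 without knockout E359. The summed level of the list was 826.3 and 825.2 CPM in the controls and 826.4 and 735.2 CPM in the knockouts. Among cytokines and chemokines, 0 of 27 had an unadjusted p under 0.05 in either direction, and 23 of the 54 listed, among them Il1b, Il6, Tnf, Tslp and Cxcl10, had 0 reads in all 4 libraries.

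Cell cycle genes were close to level. Of 53 DNA replication and mitosis genes, 1 was higher and 0 lower (1.89% and 0%, beside 1.37% and 2.02% of all genes), with a median of 0.07. They summed to 11087 and 11088 CPM in the controls and 11832 and 11792 CPM in the knockouts. The 1 was Cenpf, a kinetochore protein, at 423.2 and 405.2 CPM against 644.1 and 568.7 CPM (0.55, SE 0.237). Among D cyclins, CDKs and their inhibitors, Ccnd2 was lower, at 1877 and 1590 CPM against 1027 and 1387 CPM (-0.53, SE 0.238), as was Cdk7, the kinase of TFIIH, at 123.0 and 131.8 CPM against 78.7 and 67.3 CPM. Both were among 20 tested, with 0 higher (10% and 0%, beside 2.02% and 1.37% of all genes). The median of the 20 was 0.03, and -0.14 to 0.18 when 1 ORS library was left out.

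Single members stood under the threshold in several other lists. The shares were 3.33% lower for glycolysis and hypoxia genes, 4.76% for FGF and IGF, 2.33% for guidance and 2.94% for p53 genes. For ribosomal genes the share was 1.28% higher. Over all genes, 2.02% were lower and 1.37% higher, so these are single genes and not a result about the lists. Aldoa, a glycolytic aldolase, was at 697.9 and 614.8 CPM against 371.4 and 470.9 CPM (-0.65, SE 0.181, unadjusted p = 0.00482), 1 of 30 glycolysis and hypoxia genes. Fgfbp1, which releases FGFs from the matrix, was at 361.8 and 355.9 CPM against 288.4 and 238.2 CPM, 1 of 21. Others were Slit3, a guidance cue, at 8.34 and 4.20 CPM against 1.78 and 0.42 CPM, and the p53 target Aen at 10.6 and 11.6 CPM against 0.67 and 6 CPM, both lower, with Rpl35a higher at 12 and 1.77 CPM against 28.1 and 19.3 CPM. Rpl35a has processed copies in the genome that could take its reads. In the lists of FOXO, Hedgehog, YAP, hair shaft, hair matrix, heat shock and matrix genes, 0 tested members had an unadjusted p under 0.05, and of the inner sheath keratins Krt71 was the highest, at 3.47 to 15.3 CPM.

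**Figure D2:**
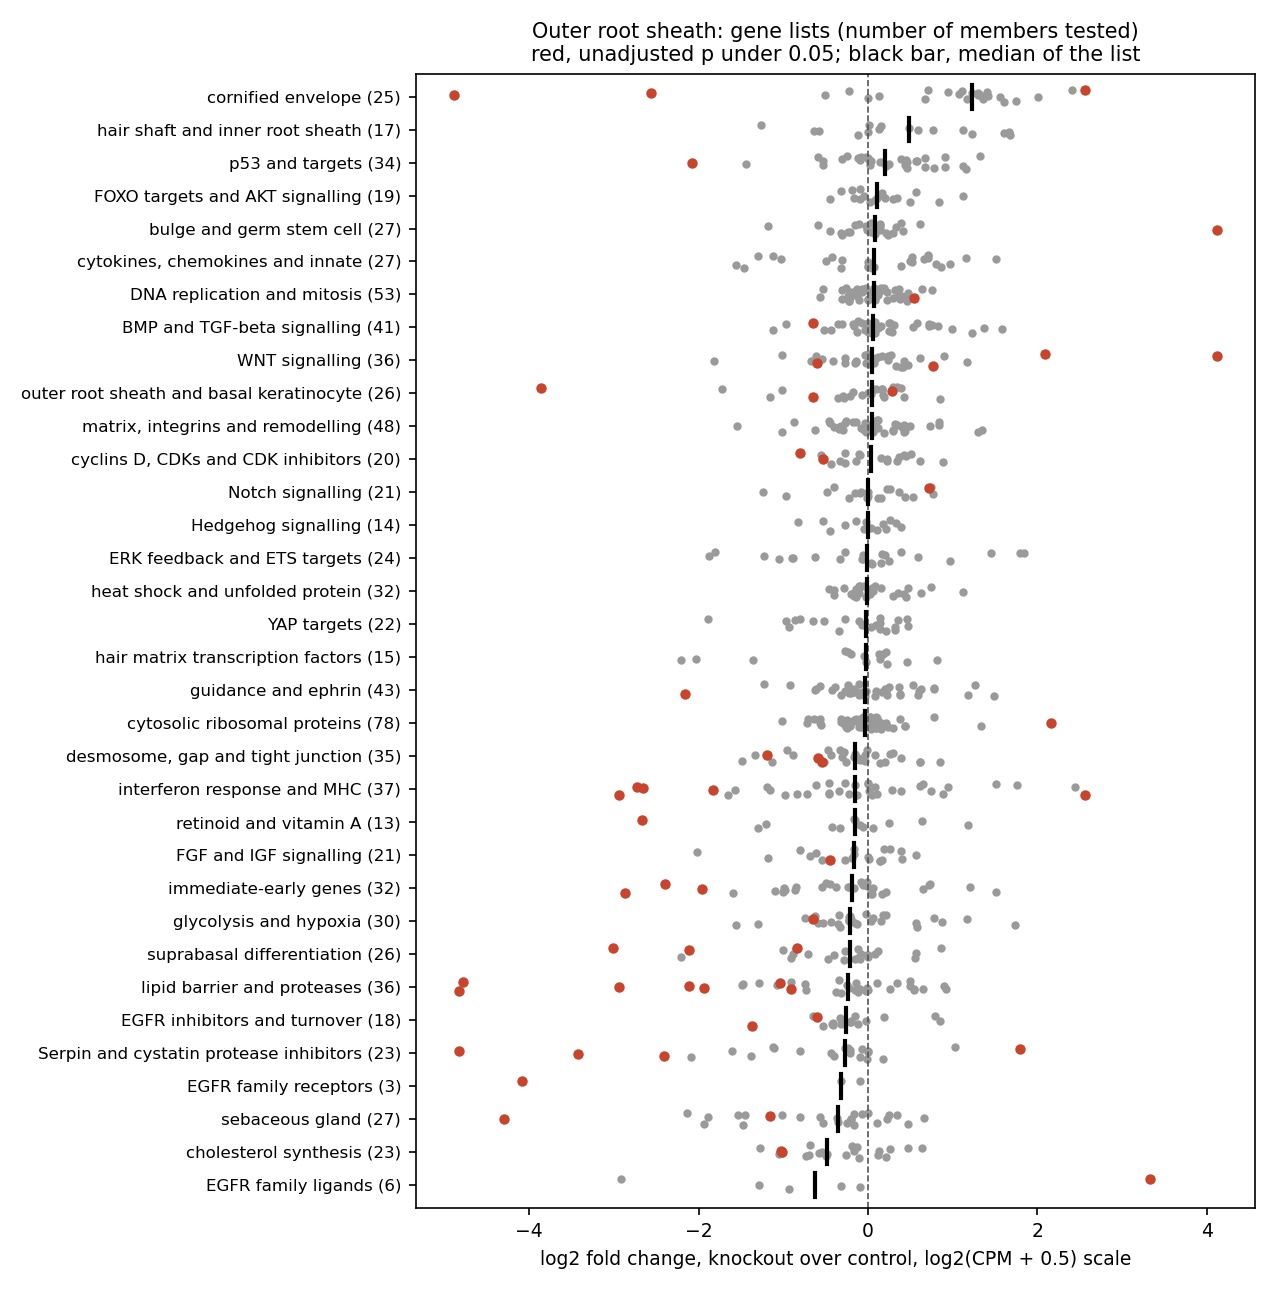
Log2 fold change of each tested member of 34 gene lists in ORS, knockout over control (grey points, members; red points, unadjusted p under 0.05; black bars, the list's median; the number of members tested in parentheses). Most medians lie near 0, the cornified envelope list has the highest at 1.23, and the red points lie to the left for the barrier protease list.

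By a rule applied to all autosomal genes with a gene symbol, at least 5 CPM in the higher group and groups that did not overlap, the 15 genes of lowest unadjusted p in each direction were named. Of the 30, 27 were found at the same place under that symbol in GENCODE M21 and all 27 are protein coding. The lower genes are Cst6, Zfp750, Elovl3, Paip1, Srsf2, Mboat1, Fam13c, Ret, Egfr, Sprr1a, Hmgn2, Krt6a, Egr1, Filip1 and Fn3krp. The higher ones are Clca1, Wnt3, AK129341, Krt78, Tfeb, Wif1, Klhdc5, Coro2a, Zfp773, Nrcam, Nlgn1, Pctp, Qsox2, Nhlrc1 and Limch1. Because the rule asks that groups not overlap, their separation is not a finding.

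Paip1, Srsf2 and Hmgn2 were the most abundant of the lower genes. Paip1, which binds the poly(A)-binding protein in translation, was at 398.8 and 427.5 CPM in the controls and 227.8 and 176.5 CPM in the knockouts, 48.9% of the control mean (-1.04, SE 0.225). Srsf2, a splicing factor, was at 580.9 and 634.4 CPM against 311.5 and 347.0 CPM (-0.88, SE 0.193). Its neighbour on the other strand, 1110005A03Rik, overlaps it and was lower in the same libraries, at 297.4 and 294.2 CPM against 151.9 and 181.2 CPM. Hmgn2, a nucleosome-binding protein with processed copies in the genome, was at 776.1 and 728.9 CPM against 404.8 and 311.8 CPM (-1.08, SE 0.261).

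Among the less abundant genes, Ret, Fam13c and Filip1 had few or 0 reads in the knockouts, whereas Mboat1 and Fn3krp were still detected. Mboat1, an acyltransferase of lysophospholipids, was at 23.4 and 20.7 CPM in the controls and 3.75 and 2.49 CPM in the knockouts (-2.66, SE 0.582). Ret, the receptor tyrosine kinase for the GDNF family, was at 5.22 and 6.28 CPM against 0 and 0.15 CPM, and Fam13c at 4.41 and 6.71 CPM against 0 and 0.04 CPM. Phyhipl, on the other strand of Fam13c, was also lower, at 3.54 and 1.70 CPM against 0 and 0.04 CPM. Filip1, a filamin-binding protein, was at 2.77 and 7.32 CPM in the controls, with 0 reads in both knockouts, at least 44.9-fold lower against a floor of 3 reads a library. Fn3krp, a ketosamine kinase, was at 20.3 and 29.8 CPM against 5.50 and 1.47 CPM (-2.87, SE 0.731).

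Most of the higher genes were near 0 in the controls. Clca1, listed under a symbol that RefSeq now gives to another gene (this locus is Clca3a1, a regulator of chloride channels; chromosome 3, 144729677 to 144760977, - strand), was at 0.18 and 0.77 CPM in the controls and 6.95 and 10.3 CPM in the knockouts. Its unadjusted p of 0.000181 was the lowest of all autosomal genes (3.28, SE 0.578). In IFE it was at 95.9 to 133.5 CPM whatever the genotype. Tfeb, the transcription factor of lysosome genes, was at 0.49 and 0.12 CPM against 14.1 and 11.4 CPM (4.07, SE 0.911). Krt78, a type II keratin, was at 0.04 and 0 CPM against 11.7 and 6.95 CPM (4.20, SE 0.917). Pctp, a phosphatidylcholine carrier, was at 0.07 and 1 CPM against 9.81 and 5.85 CPM. Coro2a, an actin-binding coronin, was at 0.77 and 1.93 CPM against 12.6 and 12.4 CPM (2.89, SE 0.760).

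Nrcam and Nlgn1, which encode cell adhesion proteins, were 2 of the 15 higher genes. Nrcam was at 4.94 and 0.77 CPM in the controls and 35.8 and 24.5 CPM in the knockouts (3.52, SE 0.969). Nlgn1, a neuroligin, was at 0 and 3.35 CPM against 27.2 and 14.2 CPM (3.86, SE 1.07). Of the nerve and Schwann cell markers, Tubb3 and Gap43 had 0 reads, and the 3 that passed the filter lay above 0. That list summed to 2.80 and 3.89 CPM in the controls and 13.7 and 7.93 CPM in the knockouts. The part of such cells in these values was not tested. Nrcam and Nlgn1 had 0 reads in all 4 IFE libraries. The remaining 6 were AK129341, Klhdc5 (now Klhl42, a substrate adaptor of a ubiquitin ligase), the zinc finger gene Zfp773, Qsox2, a sulfhydryl oxidase, Nhlrc1, which encodes the ubiquitin ligase malin, and Limch1, a regulator of non-muscle myosin. Klhdc5 was the most abundant, at 20.4 and 11.5 CPM against 109.8 and 81.3 CPM (2.58, SE 0.672). Qsox2 was at 10.8 and 6.67 CPM against 33.8 and 32.1 CPM (1.89, SE 0.557), with the smallest log2 fold change of the 15.

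**Figure D3:**
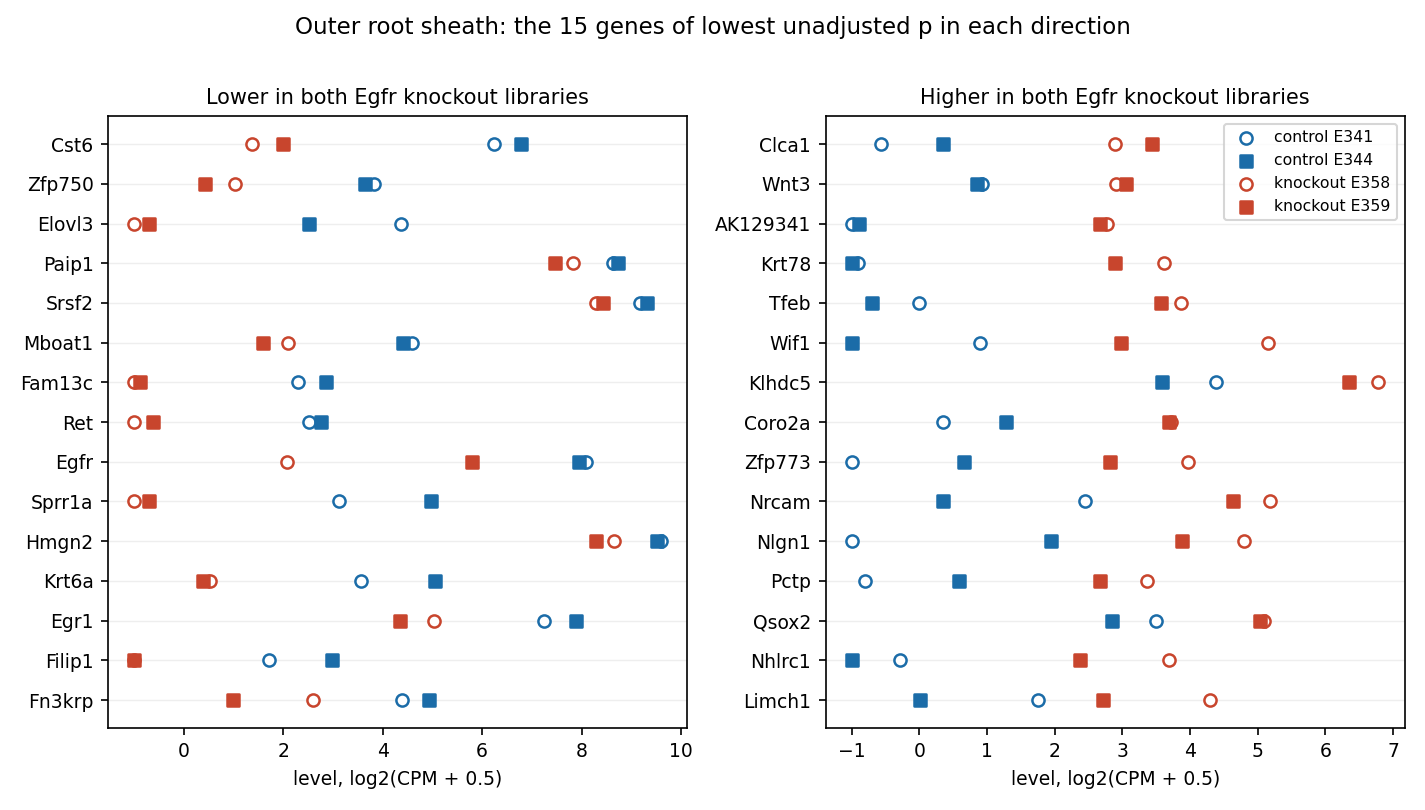
Level of the 15 lower genes (left) and the 15 higher genes (right) in each ORS library, as log2(CPM + 0.5), where -1 is 0 reads (blue, controls; red, knockouts; each point 1 library). Egfr is the lower gene whose knockouts lie furthest apart, at 3.71 and 55.2 CPM, and most higher genes lie near the left edge in the controls.

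The knockout effect in ORS was then set against that in IFE by a contrast of the 2 effects in the same limma fit. Of 13982 autosomal genes, 0 had an adjusted p under 0.05 for the difference (0%), the lowest being 0.999, and 659 (4.71%) had an unadjusted p under 0.05. Limma-voom called 0 as well. In IFE both controls had few Xist reads (34 and 11) and both knockouts many (23925 and 16454), so sex and genotype cannot be told apart there. Among the named genes, 11 of 15 higher and 11 of 15 lower had an unadjusted p under 0.05 for the difference. Those genes were chosen by the ORS effect, which is part of the contrast, so the counts are a description only.

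Krt78 and Zfp773 had effects of opposite sign in IFE and ORS. Krt78 in IFE was at 3.37 and 10.5 CPM in the controls, with 0 reads in both knockouts, and the difference of effects was 7.91 (SE 1.30, unadjusted p = 9.94e-05). Zfp773 in IFE was at 3.11 and 6.50 CPM in the controls with 0 reads in knockouts, against 0 and 1.08 CPM in ORS controls and 15.1 and 6.53 CPM in ORS knockouts (difference 6.89, SE 1.38). Cst6 had an ORS effect of -4.83 and an IFE effect of -0.30, with IFE controls at 36.1 and 3.43 CPM (difference -4.54, SE 1.33, unadjusted p = 0.00618). For Zfp750 the effects were -3.01 and 0.52 (difference -3.53, SE 0.868). Egr1 was lower in ORS by more than in IFE, -2.87 against -0.58 (difference -2.29, SE 1, unadjusted p = 0.0444). The list of immediate-early genes did not share this, with a median of -0.19 in ORS and -0.29 in IFE.

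Other named genes had effects of one sign in both. Krt6a was at 44.1 and 17.0 CPM in IFE controls and 1.78 and 8.38 CPM in IFE knockouts, an effect of -2.63 beside -3.86 in ORS (difference -1.23, SE 1.34). Srsf2 was at 615.2 and 529.1 CPM against 320.8 and 405.4 CPM in IFE, an effect of -0.66 beside -0.88. Fn3krp was at 20.5 and 22.7 CPM against 7.78 and 8.87 CPM in IFE. Egfr itself had 0 reads in IFE knockout E358 and 0.33 CPM in E359, from 115.8 and 157.2 CPM in the controls, so the residual Egfr of ORS knockout E359 had no counterpart in the IFE library of that number. The labels do not say whether libraries with the same number came from 1 animal. In the cholesterol list the median was -0.48 in ORS and 0.42 in IFE, and Insig1, the sterol sensor, went from 31.0 and 59.7 CPM to 30.2 and 28.8 CPM in ORS (difference of effects -1.83, unadjusted p = 0.0246).

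**Figure D4:**
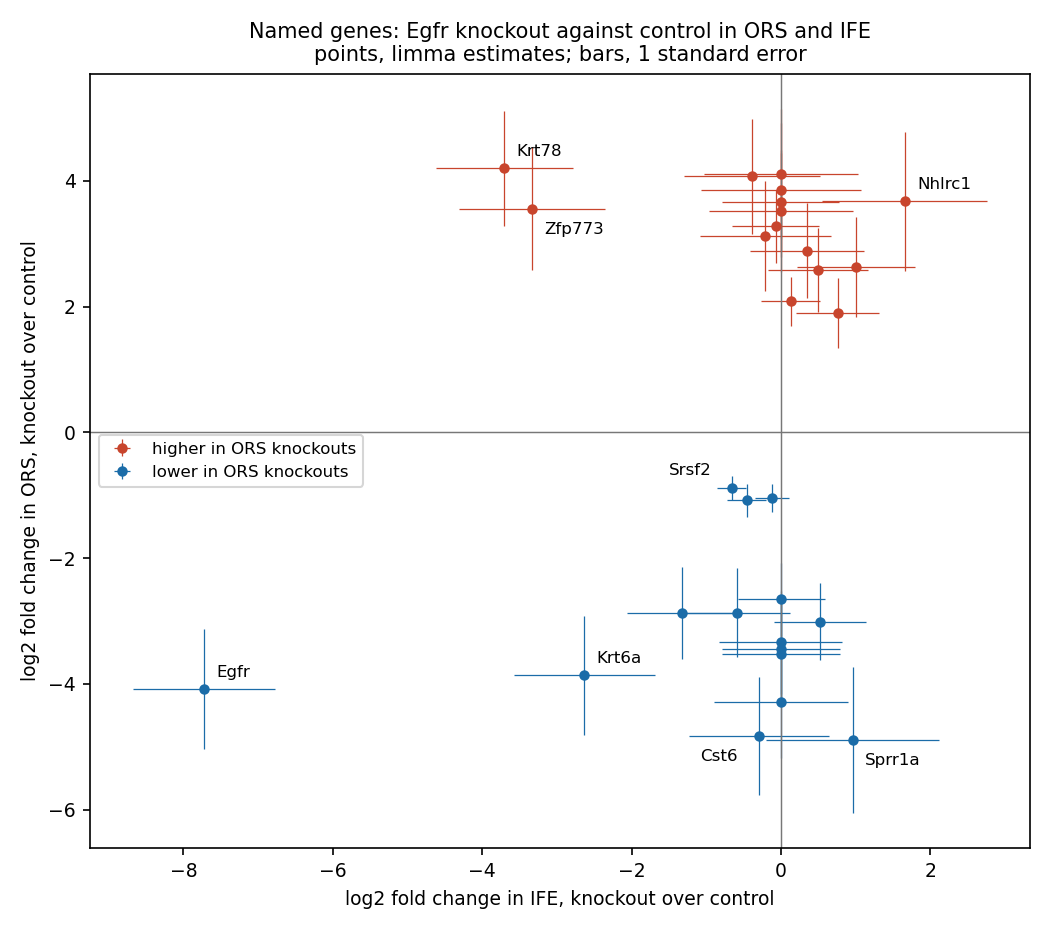
Log2 fold change in ORS against that in IFE for the 30 named genes, knockout over control (points, limma estimates; bars, 1 standard error; red, higher and blue, lower in ORS). Egfr and Krt6a are low in both compartments, Krt78 and Zfp773 lie in the upper left with opposite signs, and 8 of the 30 genes had no reads in IFE and lie at 0 on that axis.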

How the data were processed

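Messenger RNA was sequenced in 12 mouse skin libraries (paired reads of 150 bp, per the series text). The deposited values are log2 reads per 1e6, 1 per gene and library. Per the submitters' processing notes, Trim Galore, DESeq2 and mm10 were used, without their roles; the sources used here do not give aligner, counter, annotation or use of strand. In the deposited log2 files, genes with no reads sit at a floor worth 0.9 read. At least 99.99% of the values were whole reads within 0.2 reads, so reads were recovered. Library totals were 48.0 to 51.3 M in ORS.

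Limma 3.58.1 (R 4.3.3, statmod 1.5.0, trended robust prior) was run on log2(CPM + 0.5) after TMM scaling (trims 30% and 5%), two-sided, on the 8 IFE and ORS libraries as 4 groups (4 residual degrees of freedom), with Benjamini-Hochberg adjustment over 14449 genes. Genes needed 10 reads at the median library size in 2 libraries and 15 in total. Data were simulated for the ORS comparison (14449 genes). There, 17.5% of 2-fold, 59.7% of 4-fold and 80.3% of 8-fold changes were recovered, with 3 false calls. These shares describe the simulated counts and may not hold for low genes or for the real libraries. The real replicates spread unequally, with a chi-square per degree of freedom of 69.9 for controls and 140.2 for knockouts. Egfr, 8.82-fold lower in the knockouts by group means, was not called. The 0 calls therefore do not exclude changes of these sizes. Named genes were the 15 of lowest unadjusted p in each direction among autosomal genes with a symbol other than a predicted-gene name, at least 5 CPM in the higher group and groups not overlapping, list members at an unadjusted p under 0.05, and the EGFR family lists; genes given beside these were chosen after their values were seen. List names were matched by symbol or, at the same place, by older RefSeq symbols. The members and lists were chosen with earlier results of these data known. Title numbers recur between IFE and ORS (E341, E358, E359), but deviations from group means hardly correlated, at 0.049 for E341 and 0.056 for E358. E359 has the value of E358 by construction, because the deviations in a group of 2 are equal and opposite. The numbers were therefore not used as pairs. A replicate block on them, run as an alternative, had a correlation of 0.115. Some members counted in the lists are not reported here by name.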

Additional observations from a re-analysis of the deposited data

How the results depend on the processing

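No gene was called in ORS, or for the difference between ORS and IFE, under any alternative run: no filter or a filter at 50 reads, a pseudocount of 0.1 or 2, median-of-ratios scaling, no TMM, the deposited log2 values, limma-voom, the 4 ORS libraries alone (not run for the difference), all 12 libraries, a replicate block on the title number, and leaving out each ORS library. The number of genes at an unadjusted p under 0.05 moved with the fit. The higher genes were 191, against 334 with limma-voom, 291 with the 4 ORS libraries alone and 102 to 249 when 1 library was left out. The lower genes were 283, against 484 with limma-voom and 107 to 571 when 1 library was left out. With the replicate block the counts were 186 and 278, and the block changed no call. Egfr stayed between -2.22 and -5.95 (adjusted p from 0.116 to 1). When 1 library was left out, the medians of 18 of 34 lists changed sign. Cornified envelope went from 1.23 to a range of -1.51 to 3.75, and sebaceous gland from -0.35 to a range of -0.52 to 0.0034. The other 16 had medians of at most 0.207 in size. The median of the EGFR ligands was -0.63, and -1.45 with the deposited values and -1.66 with limma-voom. The 72 single genes recomputed kept their direction in all settings where they were tested, which the choice of genes largely fixes. Where 1 library is left out, the lone library of its group is assumed to vary like the others. With 2 libraries a group, and 0 reads allowing up to 0.116 CPM, low genes give no fold beyond a bound.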

Other observations

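Values of single libraries, chosen after they were seen, mark where each ORS library differed from the other 3. Knockout E358 alone had Lif, a cytokine of the IL-6 family, at 7.84 CPM, and Lox, the collagen crosslinking oxidase, at 7.06 CPM, with 0 reads of both in the other 3 libraries. It also lacked Slc6a9, a glycine transporter, at 0.04 CPM against 17.8 to 21.7 CPM. Knockout E359 alone had Ednrb, the endothelin receptor of melanocytes, at 12.3 CPM, and nearly lacked Slc1a3, a glutamate transporter, at 0.11 CPM against 25.9 to 30.1 CPM. Control E344 alone had Lcn2, a defence protein, at 6.98 CPM. Control E341 alone had Hsd3b6, a steroid dehydrogenase, at 14.3 CPM, with 0 reads in the other 3. Cytosolic ribosomal protein genes summed to 25527 and 25980 CPM in the controls, against 29887 CPM for E358 and 21337 CPM for E359, so the knockouts lay on either side of the controls, and E358 held the highest value of 58 of the 78 tested.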
